A study of Mus musculus with 20 samples.

Results

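The 10 genes of the basal, or myoepithelial, layer of the mammary gland are described here in 20 mouse mammary glands. They are the basal keratins Krt5, Krt14, Krt15 and Krt17, the basal transcription factor Trp63, the contractile genes Acta2, Myh11, Cnn1 and Mylk, and the oxytocin receptor gene Oxtr. The genes were chosen by symbol as 10 of the 18194 genes with a probe set on the array, and each was read through its brightest probe set by mean level. Of these, 9 were among the 12499 genes tested, those above 6.85, the median of all log2 values, on at least 3 arrays. Krt17 was above that level on 0 arrays, so its values are given but it was not tested with the others.

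All 20 animals were female FVB/N mice heterozygous for the NRL-TGFα transgene of line 1372-1, in which the neu-related lipocalin promoter drives transforming growth factor α in the mammary epithelium. At 8.5 weeks each animal received an implant under the skin, with 5 mg of the oestrogen receptor modulator tamoxifen or with carrier free of drug, called placebo. One number 4 gland without a tumor was taken at 20.5 to 21 weeks of age, 4 weeks after treatment had ended, and each animal was then followed for mammary tumors up to 2 years of age. The 4 groups were 3 placebo animals without a later tumor, 7 placebo animals with one, 7 tamoxifen animals without one and 3 tamoxifen animals with one. No group lacked the transgene, and each animal gave 1 array. Animals are numbered within their treatment as in the labels.

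A pair of cell layers makes up the mammary duct. The inner, luminal cells carry keratins 8 and 18 and can make milk, whereas the outer, basal cells carry keratins 5 and 14, require the transcription factor p63 for their identity, and contain smooth muscle actin and myosin. Oxytocin released during suckling binds its receptor on these outer cells, calcium rises, myosin light chain kinase activates myosin, and the cells contract around the alveoli and eject milk. Vascular smooth muscle shares the contractile genes of the basal cell, and the epidermis and hair follicle share its keratins, so each reading was set beside markers of those tissues.

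The arrays carried the signal of a fat pad with epithelium in it. The fat cell hormone gene Adipoq averaged 14.03 to 14.15 in the 4 groups on the log2 scale and the luminal keratin gene Krt18 10.24 to 11.31. The milk protein gene Csn2 averaged 6.05 in tamoxifen glands without a later tumor and 12.94 in placebo glands with one. On the first principal component over all genes, 31.9% of the variance, placebo animals 8, 7 and 9 lay farthest out at -41.13, -30.94 and -14.64. All 3 later had tumors, and some results, but not all, are given with and without them. In whole tissue, fewer cells of a type and less RNA per cell cannot be told apart.

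Promoter sequences bear on these genes because they are classical targets of known factors, and 6 of the 10 genes had an entry in the RefSeq promoter table for GRCm38.p6 (250 bases before to 50 after the start that the table uses). Those of 3 genes are printed 5′ to 3′ on the gene's strand, 1 for each role in the group. The Krt5 window lies on the minus strand at chr15:101712856-101713155, that of Acta2 on the minus strand at chr19:34255324-34255623, and that of Oxtr on the minus strand at chr6:112489776-112490075. Capitals mark a p53 family half-site in Krt5, the motif class that p63 binds. In Acta2 they mark 2 matches to the CArG box, the motif of serum response factor, each with 1 letter changed, and in Oxtr 2 copies of GGTCA, the half-site letters of oestrogen receptors.
Krt5: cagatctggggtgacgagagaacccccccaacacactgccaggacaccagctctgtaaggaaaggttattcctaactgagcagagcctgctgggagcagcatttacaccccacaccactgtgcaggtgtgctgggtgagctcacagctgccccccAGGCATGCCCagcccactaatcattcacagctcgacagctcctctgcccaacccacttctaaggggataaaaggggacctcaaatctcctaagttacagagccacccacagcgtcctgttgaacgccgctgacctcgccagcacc
Acta2: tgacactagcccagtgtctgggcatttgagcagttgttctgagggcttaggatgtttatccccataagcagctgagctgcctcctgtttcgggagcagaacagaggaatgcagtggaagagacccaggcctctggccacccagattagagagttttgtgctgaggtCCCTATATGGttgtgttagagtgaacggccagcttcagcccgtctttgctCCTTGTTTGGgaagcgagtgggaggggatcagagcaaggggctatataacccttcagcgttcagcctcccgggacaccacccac
Oxtr: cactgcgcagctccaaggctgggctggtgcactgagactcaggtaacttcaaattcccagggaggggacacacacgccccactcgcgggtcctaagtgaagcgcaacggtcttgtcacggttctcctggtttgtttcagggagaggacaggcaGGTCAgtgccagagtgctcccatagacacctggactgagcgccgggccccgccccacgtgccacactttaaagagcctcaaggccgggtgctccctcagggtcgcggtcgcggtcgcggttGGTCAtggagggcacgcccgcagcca
The half-site in Krt5 began 95 bases before the start, the CArG matches in Acta2 at 84 and 34 bases before it, and the GGTCA copies in Oxtr at 97 bases before and 24 bases after it. The Oxtr window lay wholly within the annotated gene span (chr6:112473683-112491035), as did those of Krt14 and Mylk within theirs, so the start used was not the outermost one. The windows of Acta2 and Cnn1 reached beyond their gene spans, but the start used also lay inside the span. Both strands were searched in all 32851 promoter windows of this length. The p53 family half-site was in 8.36% of them, a CArG box with at most 1 letter changed in 21.1%, and GGTCA in 40.5%. An unchanged CArG box was in 1.63% of windows and in 0 of the 6 members' windows. The motif GGTCA was also in the windows of Krt5 and Mylk, and the 6-letter E-box CAGGTG in those of Krt5 and Oxtr, against 20.2% of all windows. A match describes letters and does not show binding.

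The pattern of group means was shared by most of the genes. Placebo glands with a later tumor had the highest mean for 9 of the 10 genes, while among all 12499 genes tested this group was highest for 32.6%. Placebo glands without a later tumor had the lowest mean for 8 of the 10, against 28.2% of all genes. The 9 include Krt17, which was not tested, while both percentages are of tested genes. Krt15, which passed the filter only through glands of animals with a later tumor, is among the 9 and the 8. The exception at the top was Oxtr, highest in tamoxifen glands without a later tumor.

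**Figure D1:**
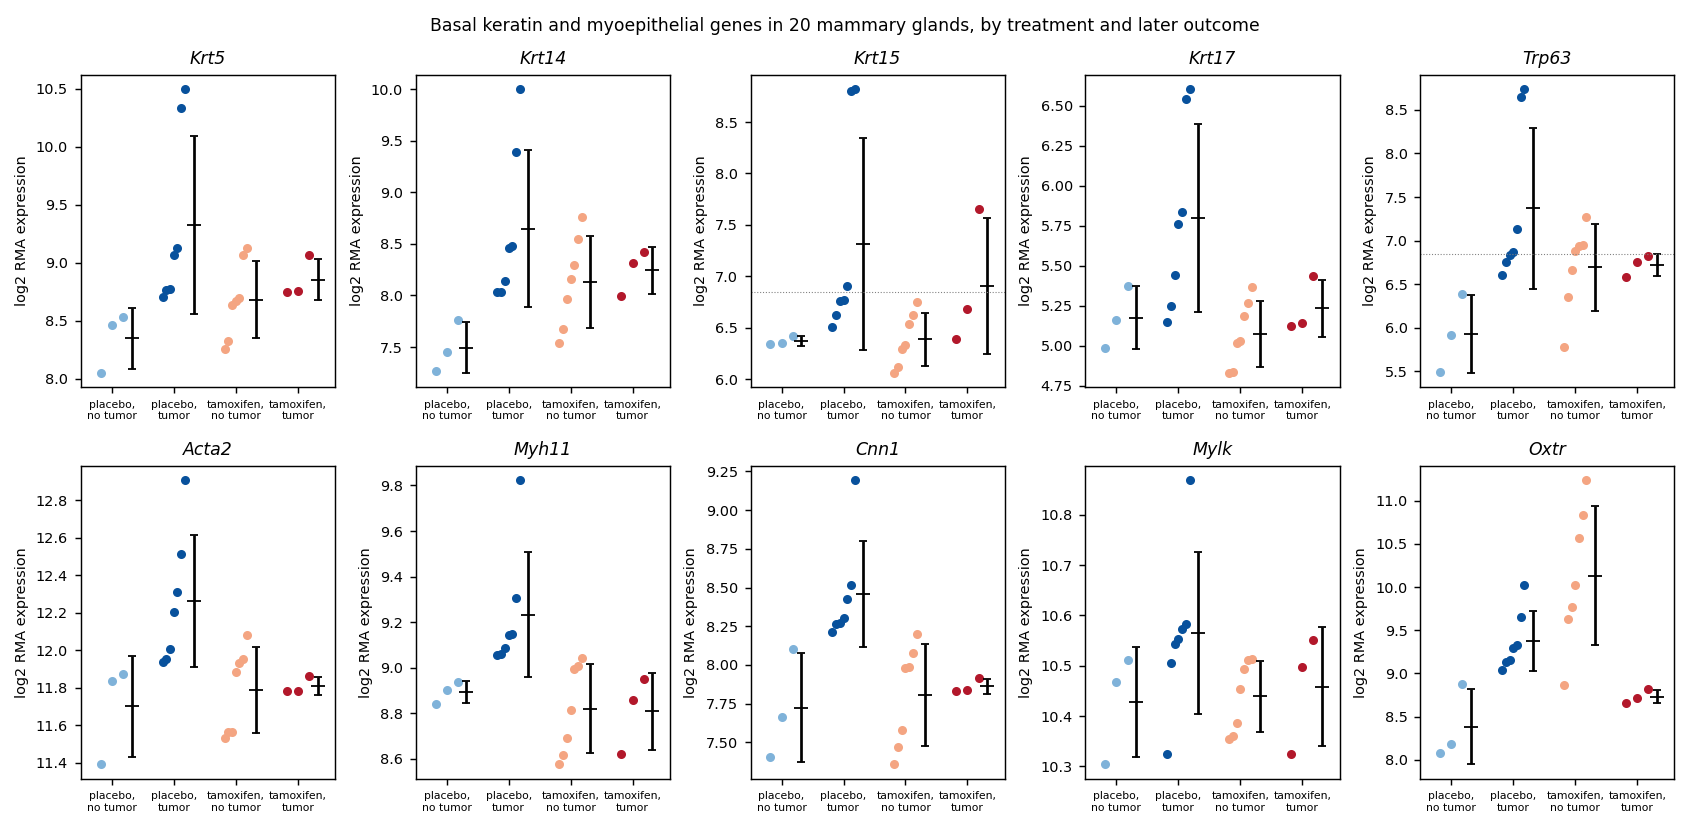
Log2 RMA expression of the 10 genes in each of 20 glands (points), by treatment and later outcome, with the group mean and SD (bars). Each panel has its own axis, which does not start at 0, and the dotted line is the filter level of 6.85 where it falls within the axis. Placebo glands with a later tumor reach highest in every panel except that of Oxtr, where tamoxifen glands without a later tumor reach 11.24.

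Krt5 and Krt14 form the filament pair of basal cells. Krt5 (Entrez 110308, chr15:101707069-101712905, GRCm38) read 8.54, 8.05 and 8.47 in the 3 placebo glands without a later tumor. In the 7 placebo glands with a later tumor it ran from 8.70 to 10.50 with a median of 9.06, so these groups did not overlap. By median the tamoxifen groups lay between the placebo groups. The 7 tamoxifen glands without a later tumor ran from 8.25 to 9.13 with a median of 8.67 and overlapped both placebo groups. The 3 with one read 9.06, 8.74 and 8.76, within the range of placebo glands with a later tumor.

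Krt14 (Entrez 16664, chr11:100203162-100207510) repeated that order. Its values were 7.76, 7.27 and 7.46 in placebo glands without a later tumor, and 8.03 to 10.01 with a median of 8.46 in those with one. Tamoxifen glands without a later tumor had 7.54 to 8.76, median 8.16, and those with one 8.32, 8.42 and 7.99. The placebo groups did not overlap and both tamoxifen groups overlapped the placebo group with tumors. A second Krt14 probe set followed the first across the 20 arrays (r = 0.993), and a dim one did not (r = -0.03).

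Krt15 (Entrez 16665, chr11:100131759-100135949), a keratin of basal and stem cells in stratified epithelia, was near the filter level and above it on 4 arrays. Of these, 3 were placebo animals 7, 8 and 9, at 8.81, 8.82 and 6.91, and the other was tamoxifen animal 1 at 7.65. The 3 placebo glands without a later tumor had 6.34, 6.42 and 6.35, and the 7 tamoxifen glands without one had 6.06 to 6.75 with a median of 6.33. All 4 animals later had a tumor, so Krt15 passed the filter only through the outcome group in which it was high, and its outcome differences are given as a description. Counts of tested members in the comparisons are therefore also given without it.

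Krt17 (Entrez 16667, chr11:100256215-100261029), a keratin of hair follicles and of stressed or basal epithelium, stayed below 6.85 in all 20 glands. It was highest in placebo animals 8 and 7 at 6.61 and 6.54, and ran from 5.15 to 5.83 in the other 5 placebo glands with a later tumor. The other 3 groups lay between 4.83 and 5.44. A probe set that the platform assigns to Krt17 and Krt14 together was not used.

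Trp63 (Entrez 22061, chr16:25683763-25892088) encodes p63, the factor that keeps basal cells basal. It read 6.38, 5.49 and 5.92 in placebo glands without a later tumor. Placebo glands with a later tumor ran from 6.60 to 8.74 with a median of 6.87, again with no overlap. In tamoxifen glands it was 5.77 to 7.28, median 6.89, without a later tumor, and 6.76, 6.58 and 6.82 with one. It was above 6.85 on 8 arrays, and its 3 other probe sets were dimmer and varied less (r with the first 0.729 to 0.802).

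Among the contractile genes, Acta2 (Entrez 11475, chr19:34240336-34255585) encodes smooth muscle α-actin. Its values were 11.87, 11.39 and 11.84 in placebo glands without a later tumor and 11.94 to 12.91, median 12.20, in those with one. Tamoxifen glands had 11.53 to 12.08, median 11.88, without a later tumor and 11.86, 11.78 and 11.78 with one. Only the placebo glands with a later tumor lay wholly above another group, both the placebo glands without one and the tamoxifen glands with one.

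Myh11 (Entrez 17880, chr16:14194527-14292188), the smooth muscle myosin heavy chain, separated the placebo glands with tumors from all others. They ran from 9.06 to 9.82 with a median of 9.15. The other 3 groups did not exceed 9.04, with 8.90, 8.84 and 8.94 in placebo glands without a later tumor, 8.58 to 9.04 in tamoxifen glands without one and 8.62, 8.86 and 8.95 in those with one. A second Myh11 probe set, dimmer with a mean of 6.51, followed the first weakly (r = 0.288) and did not show this separation.

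Cnn1 (Entrez 12797, chr9:22099221-22109221), the actin-binding calponin of differentiated smooth muscle and myoepithelium, showed the same separation. Placebo glands with a later tumor ran from 8.22 to 9.19, median 8.30. Placebo glands without one had 8.10, 7.41 and 7.66. Tamoxifen glands had 7.36 to 8.20, median 7.98, without a later tumor and 7.83, 7.84 and 7.92 with one, so that each of the other 3 groups lay below the first.

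Mylk (Entrez 107589, chr16:34745199-35002436), the kinase that switches on smooth muscle myosin, varied least. All glands lay between 10.30 and 10.87, a range of 0.565, and each pair of groups overlapped. Group means were 10.43 ± 0.110 (SD, n = 3) and 10.56 ± 0.161 (n = 7) in placebo glands without and with a later tumor, and 10.44 ± 0.0709 (n = 7) and 10.46 ± 0.118 (n = 3) in tamoxifen glands. Ordered by level, the 3 lower means lay closer together than the SD of any group, and the highest, of placebo glands with a later tumor, stood above the next by less than the SD of either group. The other Mylk probe sets differed. Between placebo glands with and without a later tumor the second brightest (r = 0.616 with the first) had -0.03, with overlap. The dimmest (r = 0.597) had 0.17, without overlap.

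Oxtr (Entrez 18430, chr6:112473683-112491035) had another order. Its values were 8.88, 8.08 and 8.18 in placebo glands without a later tumor and 9.33, 9.65, 9.15, 10.03, 9.03, 9.14 and 9.29 in placebo animals 1, 2, 4, 7, 8, 9 and 10, which later had tumors. Tamoxifen animals 3 to 9, without a later tumor, had 8.86, 9.77, 10.84, 9.63, 10.57, 10.02 and 11.24, whereas tamoxifen animals 1, 2 and 10, with one, had 8.66, 8.81 and 8.71. The 3 highest values in the study were thus in tamoxifen glands without a later tumor, 6 of which lay at 9.63 or above, and the 3 tamoxifen glands with a later tumor all lay below the lowest of them. Within placebo the order was the opposite, with all 7 glands that preceded a tumor above the 3 that did not.

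The series was designed to compare animals that later had a tumor with those that did not. The 10 with a later tumor were 7 placebo and 3 tamoxifen animals, and the 10 without were 3 and 7. Outcome was fitted alone, so this comparison also carried treatment. Across treatments, 8 of 9 tested members had a positive difference in log2 level between the 10 tumor and the 10 tumor-free animals, with a median of 0.49 against -0.01 over all genes, of which 45.1% were positive. None of the 9 passed limma's test at an adjusted p of 0.05, where 0.232% of all genes did, and 7 of 9 had an unadjusted p under 0.05, against 16.5% of all genes. The lowest adjusted p was that of Cnn1 at 0.121, for a log2 difference of 0.49 ± 0.151 (SE). Without Krt15, which passed the filter through tumor animals alone, 7 of 8 members were positive with a median of 0.43, and 6 had an unadjusted p under 0.05. Trp63 had 0.71 ± 0.295 with an adjusted p of 0.231, and Krt15 0.81 ± 0.278 with 0.151. Krt5 and Krt14 had 0.60 ± 0.221 and 0.58 ± 0.242, Acta2 0.36 ± 0.127, Myh11 0.26 ± 0.106 and Mylk 0.10 ± 0.0543. The negative one was Oxtr, at -0.43 ± 0.344 with an adjusted p of 0.559. Krt17, tested only when no filter was set, had 0.52 ± 0.174 with an adjusted p of 0.180. Placebo animals 7 and 8 had the highest levels of all for Krt5, at 10.34 and 10.50, and for Trp63, at 8.65 and 8.74. With 1 animal left out, the Krt5 difference ran from 0.45 to 0.66 and that of Trp63 from 0.54 to 0.80. Differences without placebo animals 7, 8 and 9 together are not given for this comparison.

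The 10 tamoxifen and the 10 placebo animals held 3 and 7 animals with a later tumor, so their comparison also carried outcome. In it 0 of 9 members passed, as did 0.008% of all genes. An unadjusted p under 0.05 was found for 3 of 9, and 3 of the 8 other than Krt15, against 13.9% of all genes. These 3 were contractile genes. Myh11 had a log2 difference of -0.31 ± 0.0995 with an adjusted p of 0.179, Cnn1 -0.41 ± 0.163 and Acta2 -0.30 ± 0.135. The keratins and Trp63 ran from -0.49 for Krt15 to -0.13 for Krt14, and without placebo animals 7, 8 and 9 all 4 tested ones turned positive, between 0.0040 and 0.29. Oxtr had the 1 positive difference among the 9, 0.64 ± 0.329 with an adjusted p of 0.394, where 50.5% of all genes were positive.

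Within treatments the outcome differences were unlike in size. In placebo animals all 9 members were positive, with a median of 0.94 against 0.0024 over all genes, of which 50.8% were positive. Read through the brightest probe sets, the groups did not overlap for 8 of the 9, Mylk being the exception. Of all genes 2.05% were wholly higher in this way and 4.66% were apart in either direction. Trp63 had a difference of 1.44 ± 0.419 (SE; 2.71-fold), Krt14 of 1.15 ± 0.351, Oxtr of 0.99 ± 0.357, Krt5 of 0.97 ± 0.333 and Krt15 of 0.94 ± 0.440. Cnn1 had 0.73 ± 0.203, Acta2 0.56 ± 0.177, Myh11 0.34 ± 0.141 and Mylk 0.14 ± 0.0847. None passed, with adjusted p from 0.165 to 0.471 in limma and 0.008% of all genes called, and 8 had an unadjusted p under 0.05, against 14.1% of all genes. Without Krt15, 8 of 8 were positive with a median of 0.85 and 7 of 8 did not overlap. Without placebo animals 7, 8 and 9 the difference was 0.91 for Trp63, 0.67 for Krt14, 0.48 for Krt5 and 0.29 for Krt15. For the contractile genes and Oxtr it is not given here.

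In tamoxifen animals 7 of the 9 members were positive, and 6 of the 8 other than Krt15, against 38.5% of all genes. The members other than Oxtr had outcome differences between -0.01 and 0.52, each with an adjusted p of 1.000. Trp63 had 0.03 ± 0.419, Krt14 0.11 ± 0.351, Krt5 0.17 ± 0.333, Acta2 0.02 ± 0.177 and Cnn1 0.05 ± 0.203. The largest of these, Krt15 at 0.52 ± 0.440, was carried by tamoxifen animal 1, and leaving that animal out gave 0.15. That gland also had the highest summed level of epidermal and hair follicle genes of all 20, 11.44 on the log2 scale, where the other 2 glands of its group reached no more than 10.65. The part of skin in this difference was not tested. Oxtr stood alone with -1.40 ± 0.357, which is 2.65-fold lower in glands that preceded a tumor. Its 2 groups did not overlap, which held for 0.696% of all genes in that direction, and its unadjusted p was under 0.05, against 2.1% of all genes. Its adjusted p was 0.551, so 0 of 9 members passed, against 0.008% of all genes.

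**Figure D2:**
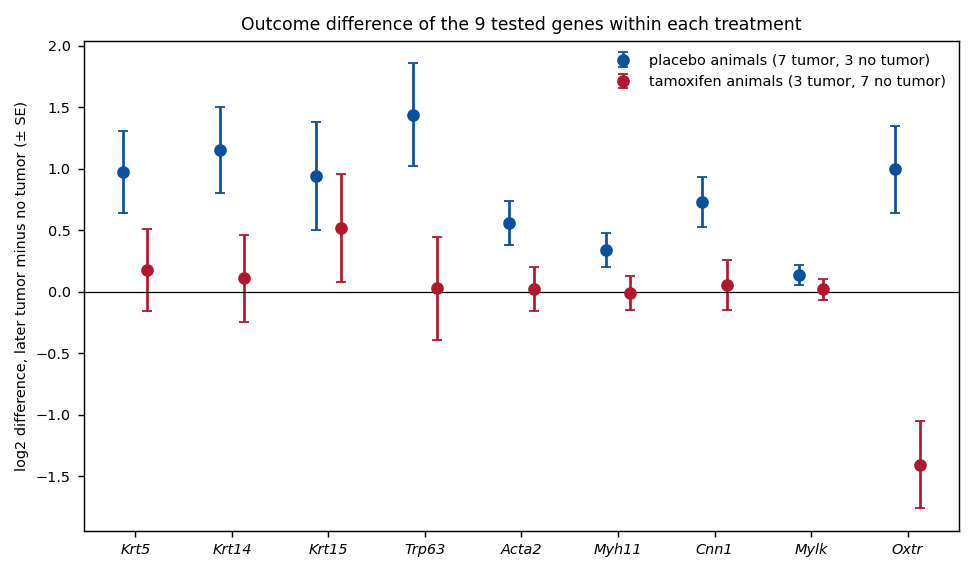
Log2 difference between glands with and without a later tumor, with its SE, for the 9 tested genes in placebo animals (7 against 3, blue) and in tamoxifen animals (3 against 7, red). The placebo differences are all above 0, with a median of 0.94, and Oxtr is the gene whose 2 differences lie far on opposite sides, at 0.99 and -1.40.

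Whether the outcome difference depended on treatment was tested as an interaction, the difference in tamoxifen animals minus that in placebo animals. All 9 members had a negative interaction, with a median of -0.68 against -0.02 over all genes, of which 44.1% were positive. None passed, with 0% of all genes called. An unadjusted p under 0.05 was found for 5 of 9, and 5 of the 8 other than Krt15, against 4.52% of all genes. Oxtr had -2.40 ± 0.505 with an adjusted p of 0.428. Its unadjusted p ranked 4 and its size 9 among 12499 genes. Without tamoxifen animal 3, whose Oxtr level of 8.86 was the lowest of its group, the interaction was -2.61 with an adjusted p of 0.0272, and over all 20 omissions of 1 animal the adjusted p ran from 0.0272 to 0.999. Next came Trp63 with -1.41 and Krt14 with -1.05, at an adjusted p of 0.938 each.

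Only 2 of the 12499 genes, or 0.016%, were apart between outcomes in both treatments and in opposite directions, and 15, or 0.12%, were apart in the same direction. The first 2 were Oxtr and Gng12, which encodes a G protein γ subunit. Gng12 had outcome differences of 0.37 in placebo and -0.47 in tamoxifen animals, with an interaction of -0.85 and an adjusted p of 0.260. The second Oxtr probe set, dimmer, followed the first across arrays (r = 0.926) with smaller differences, 0.21 in placebo and -0.51 in tamoxifen animals, and its placebo groups overlapped while its tamoxifen groups did not.

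Oxtr was also set between treatments at equal outcome, a comparison chosen after the values had been seen. Among animals without a later tumor its level was 1.75 ± 0.357 higher on the log2 scale in tamoxifen than in placebo glands, 10.13 ± 0.810 (SD, n = 7) against 8.38 ± 0.435 (n = 3), with an adjusted p of 0.0708. The groups overlapped by 1 gland, tamoxifen animal 3. Skeletal muscle genes moved the same way, all 9 higher in the tamoxifen glands with a median difference of 2.81, 9 with an unadjusted p under 0.05 and 0 called (lowest adjusted p 0.126). Their log2 summed level ran from 11.42 to 15.48 in these tamoxifen and from 9.45 to 10.26 in these placebo glands, with no overlap, and their part was not tested. Leaving tamoxifen animal 3 out gave an Oxtr difference of 1.97 with an adjusted p of 0.00535, and over all omissions of 1 animal the adjusted p ran from 0.00535 to 0.441. Among animals with a later tumor the difference was -0.65 ± 0.357 with an adjusted p of 0.719. Among the 9 members 8 were positive in the first of these comparisons and 0 in the second, against 52.8% and 45.7% of all genes. In these 2 comparisons 0 of 9 members passed, against 0.064% and 0% of all genes, and 1 and 3 had an unadjusted p under 0.05, against 5.26% and 7% of all genes. Of the 8 members other than Krt15, 7 and 0 were positive, and 1 and 3 had such a p.

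The 2 larger groups, 7 tamoxifen animals without a later tumor and 7 placebo animals with one, differ in treatment and outcome together. Cnn1 and Myh11 were lower in the former and passed the test, 2 of 9 members against 4.63% of all genes called and 2.4% called lower. Cnn1 fell by 0.65 ± 0.157 on the log2 scale (1.57-fold) with an adjusted p of 0.0262, and Myh11 fell by 0.41 ± 0.109 (1.33-fold) with an adjusted p of 0.0372. For both genes every tamoxifen gland lay below every placebo gland, as for 1.13% of all genes. The dimmer second Myh11 probe set differed by -0.01, and its groups overlapped. Without placebo animals 7, 8 and 9, Cnn1 differed by -0.50 and Myh11 by -0.27 with adjusted p of 0.15 and 0.201. Without tamoxifen animal 3, 4 or 6 neither passed, and without placebo animal 8 or 9 or tamoxifen animal 5 Myh11 did not.

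The other members did not pass in this comparison, and 6 of the 9 had an unadjusted p under 0.05, against 20.4% of all genes. Of the 8 members other than Krt15, 5 had such a p and 2 passed. Acta2 had a difference of -0.47 with an adjusted p of 0.0544, and it passed without placebo animal 1, 2 or 10 or tamoxifen animal 8, at 0.0359 to 0.0471. Krt15 had -0.93, Trp63 -0.68, Krt5 -0.64, Krt14 -0.51 and Mylk -0.13, with adjusted p from 0.125 to 0.298, and Oxtr, the 1 positive member where 53.8% of all genes were positive, had 0.76 with 0.121. Without tamoxifen animal 3, Oxtr passed at 0.97 with an adjusted p of 0.0343. Krt17 had -0.72 with an adjusted p of 0.0471 in the fit with no filter, in which its level was dim on every array.

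Markers of other cell types moved with these differences. All 8 luminal genes had positive outcome differences, with a median of 0.82 and none called (lowest adjusted p 0.0528, 6 with an unadjusted p under 0.05), and 6 of 8 passed the test as lower in tamoxifen glands without a tumor than in placebo glands with one, among them Epcam, which fell by 1.31 (adjusted p 0.00388), and Krt18, which fell by 0.95 (0.0139). The log2 summed level of the luminal list ran from 11.99 to 13.18 in the former and from 12.95 to 14.20 in the latter. Of 7 milk and alveolar genes 5 passed as higher with a later tumor, and 6 passed as lower in the 7-against-7 comparison. Csn1s1 differed by 4.15 and -5.15 with adjusted p of 0.0123 and 2.67e-05. Their part in the members' differences was not tested.

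Vascular smooth muscle shares contractile genes with the basal layer, but the vascular smooth muscle and pericyte list held other markers and none of the members. Its 8 genes gave 0 calls by outcome in limma, with 1 unadjusted p under 0.05, and 1 call in the 7-against-7 comparison. That gene was Des, higher by 0.45 in tamoxifen glands (adjusted p 0.0184), while the list's median there was -0.01. Skeletal muscle genes were also higher in those glands, and their part in the Des difference was not tested. Rgs5, a pericyte gene, averaged 11.66 to 11.83 in the 4 groups. The log2 summed level of the list ran from 12.88 to 13.19 in tamoxifen glands without a later tumor and from 12.89 to 13.09 in placebo glands with one. Epidermal genes gave 0 calls of 7 in both comparisons, with 0 unadjusted p under 0.05. Their log2 summed level ran from 10.58 to 11.23 in tamoxifen glands without a later tumor and from 10.58 to 11.44 in those with one, and from 10.61 to 10.78 and from 10.55 to 10.85 in placebo glands without and with one, and Krt10, a keratin of the outer epidermis, averaged 6.94 to 7.69 in the 4 groups.

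Skeletal muscle genes, of a tissue that lies next to the gland, passed the test as higher in tamoxifen glands without a later tumor than in placebo glands with one for 6 of 9. Their log2 summed level ran from 11.42 to 15.48 in the former and from 9.40 to 12.26 in the latter, so these groups overlapped. By outcome within tamoxifen animals all 9 genes were lower in glands that preceded a tumor, as Oxtr was, with a median of -1.31 and 0 called (0 unadjusted p under 0.05), and the summed level overlapped, at 10.44 to 13.04 in the glands with a later tumor. By outcome within placebo animals all 9 were higher, with a median of 0.62 and again 0 called (0 unadjusted p under 0.05). Across the 20 arrays the list's mean level and Oxtr had r = 0.575 (permutation p adjusted over 75 relations 0.0147) and Spearman's rho of 0.430 (adjusted 0.10). Without the 2 arrays farthest from the median of Oxtr r was 0.524, and without placebo animals 7, 8 and 9 it was 0.568. Its part in the Oxtr differences was not tested.

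The genes that work beside the members in the basal cell were also read as lists. The shares of all genes to set beside each list, here and above, were as follows. By outcome 0.232% were called and 16.5% had an unadjusted p under 0.05, and in the 7-against-7 comparison 4.63% and 20.4%. The lists, like the members, were drawn up with earlier results of these data known. Of 19 other tested genes of smooth muscle contraction, 1 was called by outcome, Itga8, an integrin subunit of contractile cells, at 0.72 (adjusted p 0.0358). Itga8 was also called in the 7-against-7 comparison, at -0.94 (adjusted p 0.000703). The list's medians were 0.05 and -0.07, and members such as Synpo2, at -0.58 and 0.75 without passing, went the other way.

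Hemidesmosomes and the basement membrane anchor basal cells, and of 11 tested genes 0 were called by outcome (3 with an unadjusted p under 0.05). In the 7-against-7 comparison 2 of the 11 fell, the laminin subunit genes Lama5 by 0.43 (adjusted p 0.0115) and Lamb3 by 0.81 (0.0335) on the log2 scale. Of 17 other basal transcription factor and surface genes, 2 fell in that comparison, Igfbp5, which binds insulin-like growth factors, by 0.54 (0.00937) and Sox10, a transcription factor, by 0.77 (0.0475). None of the 17 was called by outcome, with 6 unadjusted p under 0.05. Snai2, a transcription factor of basal cells, had an outcome difference of 0.71 in placebo animals, with an adjusted p of 0.150.

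Genes that p63 is known to bind in epithelial adhesion, with 4 tested, gave 0 calls by outcome or in the 7-against-7 comparison, though 2 had an unadjusted p under 0.05 in each. Their outcome differences were all positive, from 0.14 to 0.62, with Dsp, the desmosome linker desmoplakin, the largest. Of 4 tested genes of serum response factor and its cofactors 0 were called in either comparison, with 2 and 3 unadjusted p under 0.05, and Fhl2 came nearest at -0.20 (adjusted p 0.0556) in the 7-against-7 comparison. Of 9 tested genes that act downstream of the oxytocin receptor, 0 were called by outcome (1 with an unadjusted p under 0.05) and 1 in the 7-against-7 comparison. That gene was Itpr2, a receptor that releases calcium from stores, higher by 0.34 (adjusted p 0.00937) in tamoxifen glands.

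Across the 20 glands, which pool the 4 groups, the members other than Oxtr varied together. They were grouped by role in advance, and the groups were not compared by a test. The 10 pairs among keratins and Trp63 had Pearson's r from 0.825 to 0.945, median 0.919, and Spearman's rho from 0.543 to 0.925, and all 10 passed a permutation test adjusted over 75 relations by either measure. Without the 2 arrays farthest from the median the range of r was 0.423 to 0.920, and over the 17 arrays without placebo animals 7, 8 and 9 it was 0.410 to 0.917, median 0.650. The 6 pairs of contractile genes had r from 0.640 to 0.910, median 0.806, with rho from 0.532 to 0.898, and all 6 passed. Their r was 0.449 to 0.897 without the 2 farthest arrays and 0.620 to 0.876, median 0.647, over 17 arrays. The 20 pairs of a keratin or Trp63 with a contractile gene had r from 0.281 to 0.917, median 0.703, with 16 passing, and a median of 0.493 over 17 arrays. Pairs across the roles were thus as close as pairs within them for some genes, Acta2 having r of 0.917 with Krt17 and 0.901 with Krt5 but 0.640 with Mylk.

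Oxtr followed the other members less closely. Its r with the other 9 members ran from -0.006 to 0.346, median 0.250, and none passed (lowest adjusted p 0.204). By Spearman's rho 1 of the 9 passed, that with Trp63, at 0.541 (adjusted p 0.0292), and over 17 arrays the r of that pair was 0.557. The difference between the Oxtr pairs and the others was not tested. Each of the other 9 members had r from 0.555 to 0.879 with the mean of the luminal list, all passing, and Oxtr had 0.125. With the vascular smooth muscle list all 10 had r between -0.473 and -0.100, and none passed.

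**Figure D3:**
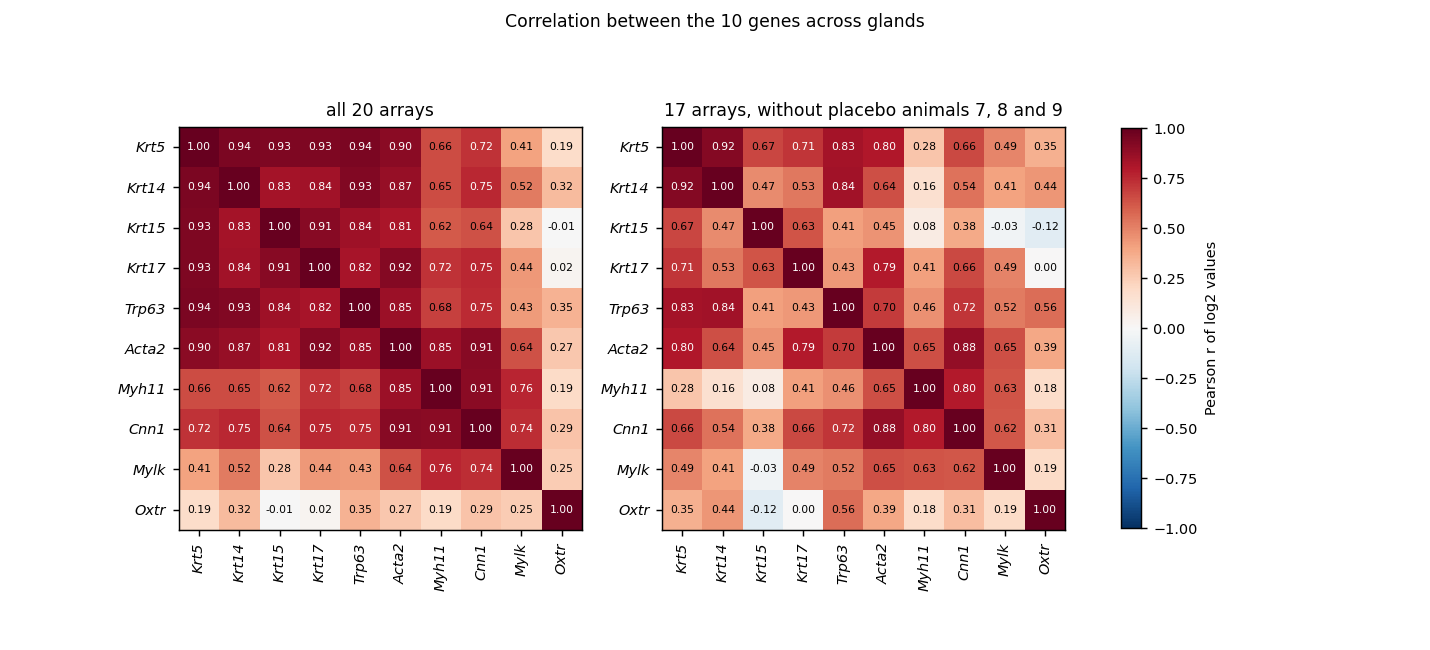
Pearson's r between the log2 values of each pair of the 10 genes over all 20 arrays (left) and over the 17 arrays without placebo animals 7, 8 and 9 (right), on 1 colour scale from -1 to 1. The pairs among keratins and Trp63 have a median r of 0.919 on the left and 0.650 on the right, while the Oxtr row stays between -0.006 and 0.346 on the left.

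The genes most like each member over the 20 arrays were taken from 12490 tested genes as the 3 with the highest r. Irx3, a homeobox gene, led for Krt5 (r = 0.969) and Trp63 (0.928), and Trim29, which encodes a tripartite motif protein of basal epithelia, for Krt14 (0.931). Lgals7, the galectin of stratified epithelium, led for Krt15 (0.949) and Irx1 for Krt17 (0.964). Among contractile genes Sh3yl1 led for Acta2 (0.961), followed by Fzd7, a Wnt receptor gene (0.955), Plekhb1 led for Myh11 (0.911), Fxyd3 for Cnn1 (0.921) and Harbi1 for Mylk (0.818). The nearest to Oxtr were Gng12 (0.840), Haus7 (0.819) and Plppr3 (0.813). Without placebo animals 7, 8 and 9 the r of these leading partners ran from 0.729 for Mylk and Harbi1 to 0.908 for Acta2 and Sh3yl1.

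Basal and luminal keratins were also set against each other within arrays, where a difference of log2 values shows unequal change and not the state of either gene. The value of Krt14 minus Krt18 was -2.60 ± 0.622 (SD, n = 10) in animals with a later tumor and -2.38 ± 0.397 (n = 10) in those without, a difference of -0.22 with a permutation p of 0.344. With the mean of all probe sets of each gene this was -0.45 (permutation p 0.0299, adjusted 0.0599), and without placebo animal 7 it was -0.35 (adjusted 0.173). Between tamoxifen and placebo animals it differed by 0.39 (-2.30 ± 0.338 against -2.69 ± 0.612), with a permutation p of 0.0981 that became 0.363 after adjustment over 4 tests. Without placebo animals 7, 8 and 9 this difference was 0.59 with an adjusted permutation p of 0.0484. For Krt5 minus Krt8 the differences were -0.24 by outcome and 0.17 by treatment, each with an adjusted permutation p of 0.363. The spread was widest in placebo glands with a later tumor, from -3.24 to -1.46 for Krt14 minus Krt18.

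**Figure D4:**
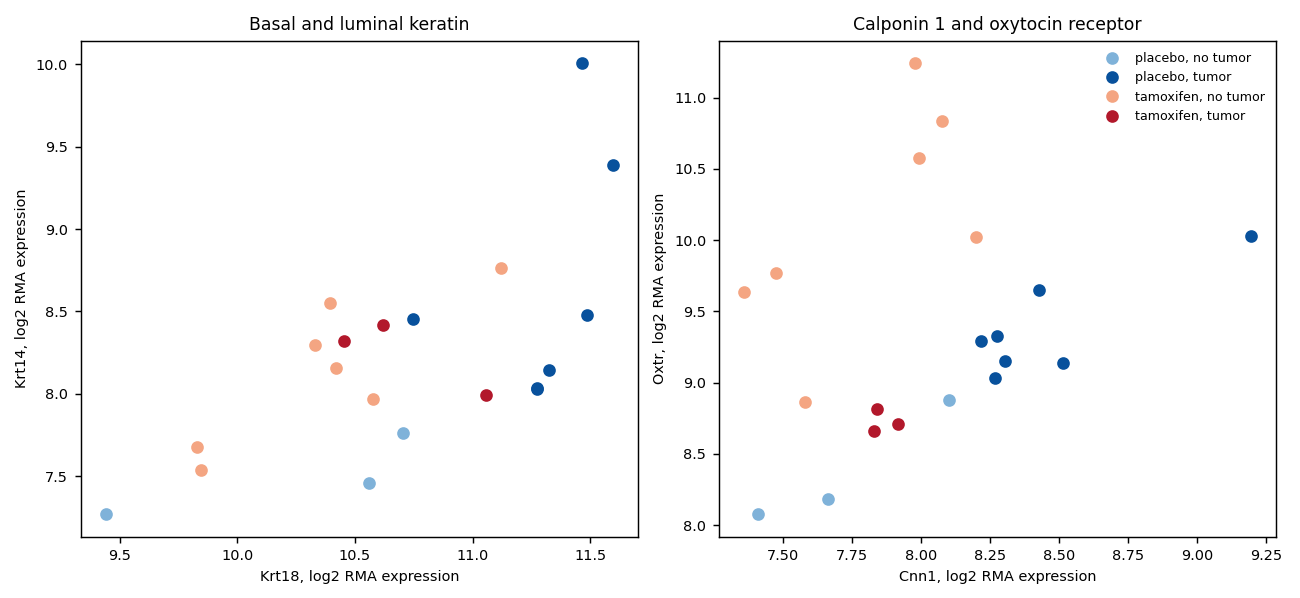
Log2 expression of Krt14 against that of the luminal keratin Krt18 (left) and of Oxtr against Cnn1 (right) in the 20 glands, coloured by treatment and later outcome. On the left the placebo glands with a later tumor reach the upper right, and on the right they are the glands highest in Cnn1, 8.22 to 9.19, while the tamoxifen glands without a later tumor reach highest in Oxtr, 11.24.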

How the data were processed

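Gene expression was measured in 20 mammary glands, 1 array each. The deposited values are log2 expression per probe set that the authors made with RMA, per the submitters' processing notes, and RMA fits a summary over all arrays and equalises their distributions, which can shrink differences that many genes share. For the program that ran RMA, a version or a genome build was not given in the sources used here. Values of the 45101 probe sets spanned 3.38 to 14.55, array medians from 6.82 to 6.89 and pairwise correlations of arrays from 0.977 to 0.997, and 0 pairs of arrays were identical. The number of arrays limits the precision.

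Groups and animal numbers came from the labels. Probe sets were joined to genes with the platform table, updated by Entrez ID for 34754 of the 34958 with 1 symbol, while the 932 with more than 1 symbol and the 9211 without one were not tested. Each gene was read through its probe set with the highest mean. Genes that exceeded the overall median of 6.85 on at least 3 arrays were tested, two-sided, with lmFit and eBayes of limma 3.58.1 (R 4.3.3), with Benjamini-Hochberg adjustment over 12499 genes and a threshold of 0.05. Outcome and treatment were fitted alone, and the comparisons within groups and the interaction came from a model of the 4 groups. Permutation tests, two-sided, used 100000 resamples in Python 3.11.15 with scipy 1.17.1. Folds are log2 differences taken back to the linear scale, without sign. The limma procedure was tested on simulated data.

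The members and the gene lists were chosen with earlier results of these data known. All members are named in every comparison, and from each list at most 3 genes by moderated statistic plus those past the threshold. The comparisons of treatments at equal outcome were added after the data were seen. Animals share numbers across treatments, and the labels do not say that a number pairs them. Of 10 pairs, 4 had correlated deviations above 0.1 (range -0.101 to 0.586). Each sample had 10 candidates in the other treatment, and 7 of 20 correlated best with their own number, more than random matching would give on average. That count was not tested, and a pair that matched best both ways is counted at both of its samples. Whether the numbers pair the animals was not settled, and the number was used as a block only in an alternative. Alternatives covered the filter, scaling, probe set, variance model, array weights, the replicate block, a covariate for the other factor and animals left out. Promoters were RefSeq windows of 300 bases on GRCm38.p6, matched for 6 of 10 members (not Krt15, Krt17, Trp63 or Myh11).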

Additional observations from a re-analysis of the deposited data

Results flagged for a closer look

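In the 7 placebo glands with a later tumor, Myh11 at 9.82 and Cnn1 at 9.19 in animal 7 lay farther from the next gland, relative to the range of the group, than Dixon's 95% limit allows. The next highest glands were at 9.31 and 8.51, both in animal 9. Chance flags about 1 in 20 groups, and 20 groups of 7 glands were tested, of which these 2 were flagged. Without animal 7 the difference between tamoxifen glands without a tumor and placebo glands with one was -0.31 for Myh11 and -0.53 for Cnn1, with adjusted p of 0.0472 and 0.0404 in limma.

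The outcome difference of Oxtr was 0.99 in placebo and -1.40 in tamoxifen animals, and the difference between these, -2.40, stood out because the groups were apart in both treatments and in opposite directions. Its interaction had an adjusted p of 0.428 in limma and so did not pass.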

How the results depend on the processing

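The number of arrays, and the 3 animals in each of 2 groups, limit what these comparisons can show. With 1 animal left out at a time, the members called stayed at 0 by outcome, by treatment, by outcome within either treatment and between treatments with a tumor, and ran from 0 to 1 for the interaction, from 0 to 1 between treatments without a tumor and from 0 to 3 between tamoxifen animals without and placebo animals with a tumor. That last count of 2 became 1 with the mean of all probe sets (Myh11 -0.21, adjusted p 0.0753) and with array weights (Myh11 -0.34, 0.0514), 3 with no filter, and 0 without placebo animals 7, 8 and 9. Array weights gave 1 call between treatments without a tumor, Oxtr at 1.86 (0.0373). Shares of all genes called were not set beside the counts of these alternatives and omissions. The treatment difference of Krt14 minus Krt18 was 0.59 without placebo animals 7, 8 and 9. The outcome difference of that pair, -0.22, was -0.45 with the mean of all probe sets and -0.39 without those animals, and neither passed after adjustment. In every such case, and for the changes of sign below, the cause was not tested.

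The replicate number as a block moved the members called to 5 by outcome and 1 by treatment. It gave 3 by outcome in placebo and 6 in the 7-against-7 comparison. Krt15 was among the 5 and the 6, with adjusted p of 0.0106 and 0.0139 in limma. The share of all genes called with the block is not given here, so these counts are not a result about the members. The labels do not say that the numbers pair the animals. Outcome differed within a number only for numbers 4, 7, 8 and 9. In each, a placebo gland with a later tumor stood against a tamoxifen gland without one. The block's overall outcome difference was thus a treatment difference as well. Krt5, for example, had 1.07 by outcome and -1.07 in the 7-against-7 comparison. The block gave a log2 difference of -0.66 for Cnn1 in that last comparison (adjusted p 0.0501).

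Of single members, 30 differences changed sign, all of them without a call on either side. By treatment, Krt14 was 0.11 with array weights, 0.12 with outcome as a covariate and 0.29 without placebo animals 7, 8 and 9, Trp63 was 0.039, 0.056 and 0.25, and Krt5 and Krt15 were 0.11 and 0.0040 without those animals. By outcome, Mylk was -0.0056 overall and -0.0297 in placebo with the probe set of largest variance. By outcome in tamoxifen, Mylk was -0.039 with the mean of probe sets and -0.12 with that of largest variance, Trp63 and Acta2 were -0.056 and -0.0085 with array weights, and Myh11 was 0.0079 with quantile normalization and 0.14 with the replicate block. The Krt15 interaction was 0.32 with the block and 0.23 without placebo animals 7, 8 and 9. Between treatments without a tumor, Krt15 was -0.026 with quantile normalization and -0.044 with the block, Cnn1 was -0.053 with the block, Myh11 0.012 and Mylk -0.0098 with the mean of probe sets, and Mylk -0.13 with that of largest variance. Between treatments with a tumor, Krt5, Krt14 and Krt15 were 0.11, 0.17 and 0.27 with the block and 0.029, 0.078 and 0.24 without placebo animals 7, 8 and 9.

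With 1 animal left out, signs changed in these ranges: Krt14 by treatment from -0.25 to 0.055; by outcome in tamoxifen, Acta2 from -0.021 to 0.071, Cnn1 from -0.021 to 0.12, Myh11 from -0.081 to 0.083, Mylk from -0.028 to 0.086 and Trp63 from -0.12 to 0.13; between treatments without a tumor, Acta2 from -0.067 to 0.17, Cnn1 from -0.074 to 0.27, Krt15 from -0.045 to 0.071 and Mylk from -0.051 to 0.053.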
